A study of Mus musculus with 12 samples.

Results

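Dcxr and the carbonyl reductases were examined as a set of 7 listed genes: Dcxr, Cbr1, Cbr2 and Cbr3 of the short-chain dehydrogenase/reductase family, and Akr1a1, Akr1b3 and Akr1b8 of the aldo-keto reductase family. Each gene was read from its probe set with a single gene symbol and the highest mean over 12 arrays, which gave values for 6 of the 7 genes, among 17097 genes measured in all. Akr1b3 was not analysed here. Dcxr was chosen by its measured signal on these arrays, where it was among the strongest rises with oxaliplatin, so its values with oxaliplatin are given as a description, without a test; the other genes were listed as its functional relatives, with earlier results in view.

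The cells were CT26, a mouse colon cancer line, in 4 groups of 3 arrays. STS+OXP cells were kept for 48 hours under short-term starvation (STS), that is in 0.5 g/L glucose and 1% serum, with oxaliplatin (OXP), a platinum-based DNA-damaging agent, added 24 hours after the start. OXP cells were given the same drug but kept at 1 g/L glucose with 10% serum, STS cells had the starvation medium without drug, and CTR cells had normal glucose and serum without drug. The sample labels give 10 µM OXP, and other parts of the study's text give other concentrations. A figure legend of the study also places the drug after 48 hours of starvation, for a further 24 hours. The concentration and timing used for these arrays were not settled. No source used here says if the 3 arrays in each group come from different cultures, so p-values measure the spread between arrays, which may be technical.

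Carbonyl reductases use NADPH to turn reactive aldehydes and ketones into alcohols. Dcxr, dicarbonyl/L-xylulose reductase, converts L-xylulose to xylitol in the glucuronate-xylulose pathway of sugar metabolism and also reduces dicarbonyl compounds. Akr1a1 reduces glucuronate earlier in the same pathway, Cbr1 and Cbr3 are cytosolic enzymes that act on quinones and other xenobiotics, Cbr2 is a mitochondrial enzyme known from mouse lung, and Akr1b8 is a relative of aldose reductase that is induced by fibroblast growth factor in mouse cells.

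Dcxr and Cbr2 lie next to each other on the minus strand of chromosome 11, at chr11:120724546-120727284 and chr11:120729485-120732025 in GRCm38, with 2200 bases between them. The 250 bases before the RefSeq start of each gene are shown because these neighbours differed widely in how far their signals changed with OXP: Dcxr at chr11:120727285-120727534 and Cbr2 at chr11:120732022-120732271, both on the minus strand of GRCm38.p6; the start used for Cbr2 lies 4 bases inside its listed span. Capitals mark CCAAT or its reverse complement ATTGG.
Dcxr: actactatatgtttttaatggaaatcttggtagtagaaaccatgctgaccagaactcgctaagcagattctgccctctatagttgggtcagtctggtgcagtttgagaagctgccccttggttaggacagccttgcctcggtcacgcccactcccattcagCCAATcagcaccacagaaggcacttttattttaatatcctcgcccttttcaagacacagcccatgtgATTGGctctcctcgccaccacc
Cbr2: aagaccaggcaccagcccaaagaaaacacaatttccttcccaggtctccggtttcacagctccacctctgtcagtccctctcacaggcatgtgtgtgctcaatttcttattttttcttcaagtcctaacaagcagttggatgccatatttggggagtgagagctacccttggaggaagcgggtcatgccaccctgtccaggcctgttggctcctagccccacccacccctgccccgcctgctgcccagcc
The antioxidant response element core TGACNNNGC, the E-box CACGTG and the p53 decamer motif were searched on both strands of the 300-base windows (250 bases before and 50 after the start) of the 6 members that had one. They had 0 matches in all 6 windows, while 12.4%, 7.15% and 8.36% of 32851 windows held the antioxidant core, the E-box and the p53 decamer. CCAAT, added after the sequences had been read, had 2 matches in the Dcxr window, 89 and 22 bases before the start, 1 match in the Cbr1 window and 0 in the windows of Cbr2, Cbr3, Akr1a1 and Akr1b8, and 37.4% of all windows held it. The other members lie at chr16:93607837-93610349 (Cbr1), chr16:93683219-93690991 (Cbr3), chr4:116636510-116651674 (Akr1a1) and chr6:34354146-34368461 (Akr1b8).

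Signals are log2 values, so a difference of 1 is a doubling. The level of negative signal was taken from the highest of 15 bacterial control probe sets on each array, whose group means were 3.42 in STS+OXP cells, 3.34 in OXP cells, 3.50 in STS cells and 3.49 in CTR cells, and a group mean no higher than this is called at control level. Array OXP replicate 1 stood apart in RNA quality: its Gapdh 3′ probe set exceeded the 5′ probe set by 3.85, against -0.12 to 0.28 on the other 11 arrays. Array OXP replicate 2 was closer to the STS+OXP arrays (mean root mean square difference over genes 0.173) than to OXP replicate 1 (0.345) or OXP replicate 3 (0.251). Where leaving out both arrays ended a call or moved a value of Dcxr, the value without them, which rests on a single OXP array assumed to vary like the other groups, is given too. Epithelial markers were partly seen, with 3 of 8 above control level in each group, including Krt20 and Epcam, while Krt18, Krt19, Cdh1, Cldn3 and Vil1 were at control level.

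Dcxr was high in every OXP-treated array. Its signals were 9.40, 9.57 and 9.39 in STS+OXP cells, 9.34, 9.45 and 9.73 in OXP cells, 5.18, 5.16 and 5.25 in STS cells and 4.64, 4.61 and 4.55 in CTR cells. The OXP-treated arrays lay more than 4 log2 units above all untreated arrays, and the STS arrays lay above the CTR arrays without overlap.

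**Figure D1:**
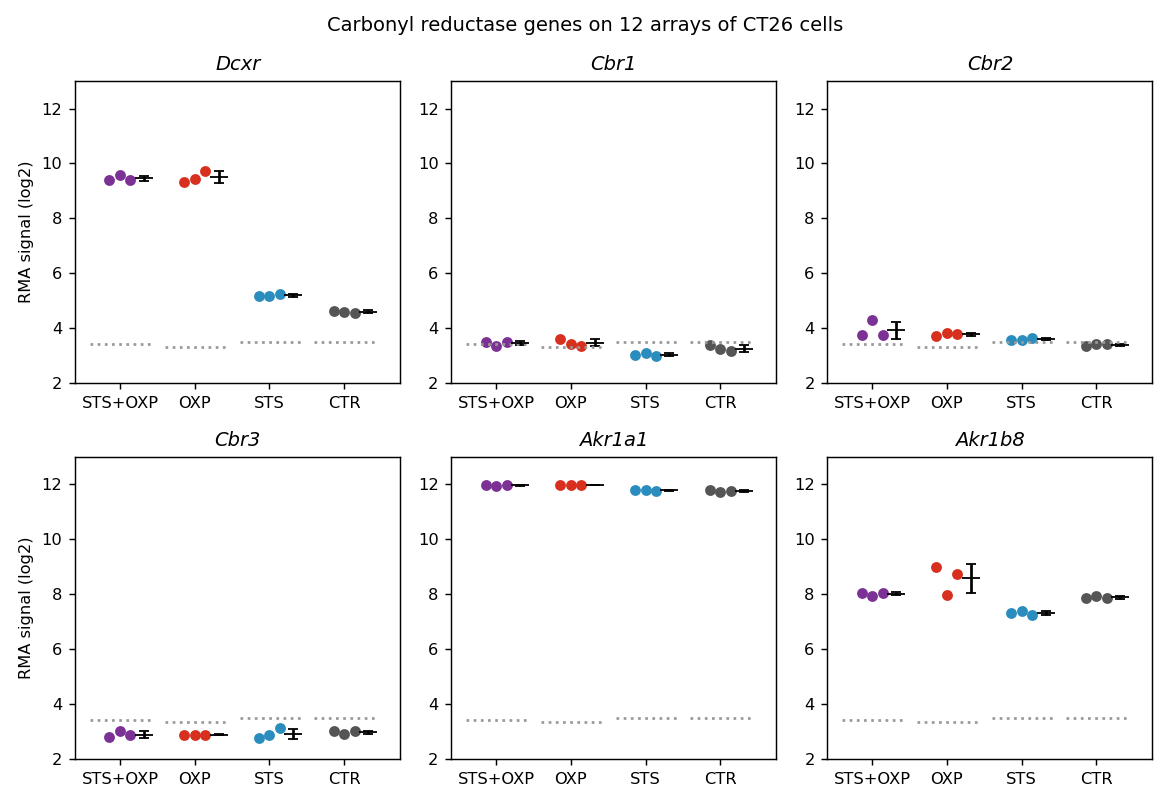
RMA signal (log2) of the 6 measured genes on each array (points, 3 per group) with the group mean and SD (black) and the control level of each group (dotted). Dcxr has group means of 9.45 in STS+OXP and 9.51 in OXP cells against 5.20 in STS and 4.60 in CTR cells, while Cbr3 is below the dotted line in all groups.

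The mean of Dcxr was 9.45 ± 0.10 in STS+OXP cells, 9.51 ± 0.21 in OXP cells, 5.20 ± 0.04 in STS cells and 4.60 ± 0.05 in CTR cells (SD, n = 3 each). As a description, STS+OXP cells exceeded CTR cells by 4.85 (28.9-fold) and STS cells by 4.26 (19.1-fold), and OXP cells exceeded CTR cells by 4.91 (30.0-fold). In both comparisons with CTR, Dcxr had rank 2 of 17097 genes by size of rise. With both atypical OXP arrays left out, the OXP minus CTR difference was 5.14. The starvation effect with the drug present minus that without it was -0.65 (SE 0.13), and -0.88 without both arrays.

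Markers of macrophages, another cell type, had a mean signal of 3.82 to 3.88 on the STS+OXP arrays, 3.80 to 4.34 on the OXP arrays, 3.65 to 3.70 on the STS arrays and 3.65 to 3.79 on the CTR arrays. Of 6 markers, 3 were above control level in STS+OXP cells, 4 in OXP cells, 2 in STS cells and 3 in CTR cells. Cd14, the brightest, averaged 7.75 in STS+OXP cells, 8.19 in OXP cells, 7.02 in STS cells and 7.02 in CTR cells, so that it was higher in both drug groups, as Dcxr was. Cd68 averaged 3.20 in STS+OXP cells, 4.41 in OXP cells, 2.96 in STS cells and 2.94 in CTR cells. Adgre1 had group means from 3.65 to 3.73 and Csf1r from 3.45 to 3.69, while Lyz2 and Itgam were at control level in all groups. Their part in the Dcxr signal was not tested, and fewer cells of a type cannot be told apart from less RNA per cell in these bulk samples.

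The comparison of STS with CTR asks what starvation medium did alone. Its CTR arrays are among those whose values chose Dcxr, so for Dcxr this test is not independent of that choice. Dcxr rose by 0.60 in STS cells, a 1.51-fold change (SE 0.10, adjusted p = 0.000648 in limma with Benjamini-Hochberg adjustment over all genes, 95% interval 0.39 to 0.80). It kept this call under each of the 23 alternatives tried (adjusted p from 9.47e-06 to 0.0163). Of the 6 measured members, Dcxr alone passed the test at an adjusted p of 0.05, while 16.5% of all genes did. Markers of fibroblasts also differed between these groups: their mean signal was 4.87 to 4.91 on the STS arrays and 4.38 to 4.53 on the CTR arrays, without overlap, with 4 of 6 markers above control level in both groups. Pdgfrb averaged 6.84 in STS cells and 5.68 in CTR cells, Col1a2 6.59 and 6.04, Col1a1 5.07 and 4.72, and Pdgfra 4.77 and 4.51, while Thy1 and Dcn were at control level in both. The mean of the 6 markers was 4.69 to 4.83 on the STS+OXP arrays and 4.65 to 4.79 on the OXP arrays. The part of these markers in the Dcxr signal was not tested.

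Between STS+OXP and OXP cells, Dcxr differed by -0.05, with a 95% interval from -0.26 to 0.15 (adjusted p = 0.869 in limma). Without OXP replicates 1 and 2 the difference was -0.28 (adjusted p = 0.162). The order of the group means was therefore OXP, STS+OXP, STS and CTR, with OXP and STS+OXP overlapping. Of the 6 members, 0 passed in this comparison, beside 0.0117% of all genes. At an unadjusted p under 0.05, 1 member, Akr1b8, passed in limma, and 0 passed in the methods' t-test. The STS+OXP and OXP arrays are also used in the comparisons with CTR and STS. The OXP arrays are among those whose values chose Dcxr. For Dcxr the test of STS+OXP against OXP is therefore not independent of that choice.

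**Figure D2:**
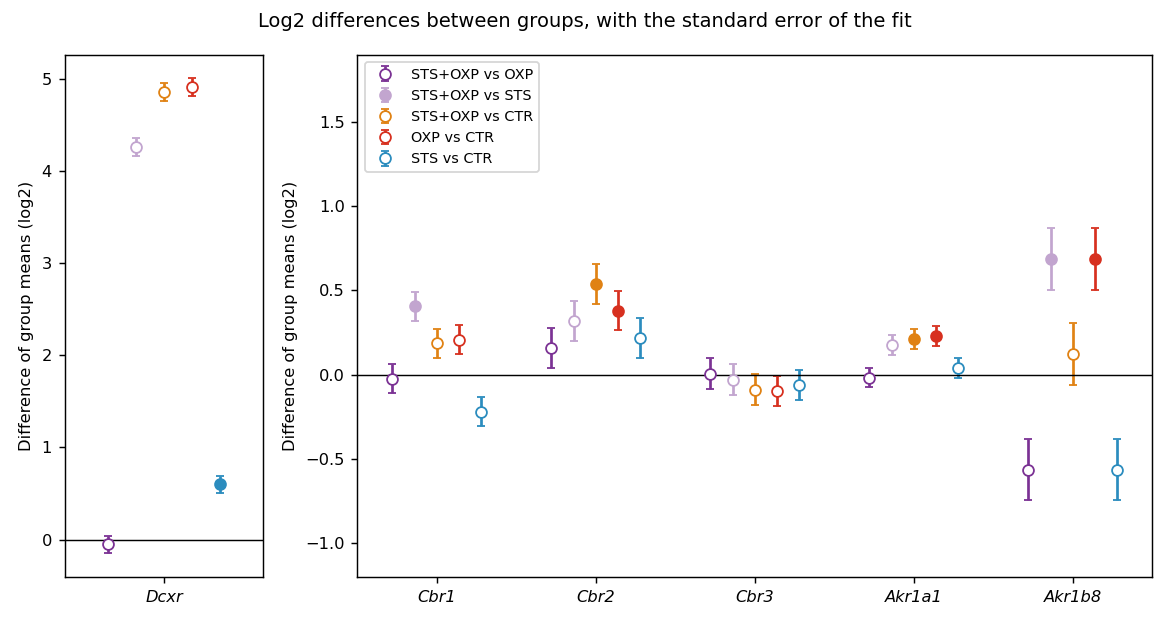
Difference of group means (log2) with the standard error of the fit, for Dcxr (left) and the other 5 genes (right, own scale). Filled points passed limma at an adjusted p of 0.05; the open Dcxr points of STS+OXP vs STS, STS+OXP vs CTR and OXP vs CTR were not tested, and the Dcxr point of STS+OXP vs OXP lies at -0.05.

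Akr1b8 had its highest group mean in OXP cells and its lowest in STS cells. Its signals were 8.05, 7.94 and 8.03 in STS+OXP cells, 8.99, 7.98 and 8.75 in OXP cells, 7.32, 7.40 and 7.25 in STS cells and 7.87, 7.95 and 7.84 in CTR cells. The OXP arrays all lay above the CTR arrays, and the STS arrays all lay below them, but OXP replicate 2 lay within the range of the STS+OXP arrays. The means were 8.01 ± 0.06 in STS+OXP cells, 8.57 ± 0.53 in OXP cells, 7.32 ± 0.08 in STS cells and 7.89 ± 0.05 in CTR cells (SD, n = 3 each).

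Akr1b8 rose by 0.69 in OXP over CTR cells (SE 0.18, adjusted p = 0.00969 in limma), and by 0.69 in STS+OXP over STS cells (adjusted p = 0.0143). The first call was lost in the methods' t-test (adjusted p = 0.375) and in a fit of the OXP and CTR arrays alone (0.0633). The difference lay between 0.48 and 0.99 when each array was left out in turn, and the array with the high Gapdh 3′ to 5′ ratio was the highest in Akr1b8; the part of RNA quality in this result was not tested. The second was lost without STS replicate 3 (0.0557). In STS against CTR cells the difference was -0.56 (SE 0.18, adjusted p = 0.0510 in limma), which did not pass. It passed without OXP replicate 1 (0.00994) or OXP replicate 2 (0.000199), arrays that enter only through the shared estimate of the spread. It also passed with cyclic loess (0.0387), with genes above the median signal only (0.0373), with array quality weights (0.00120), in a fit of the STS and CTR arrays alone (0.000176) and in the methods' t-test (0.0324).

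Akr1b8 differed by -0.56 between STS+OXP and OXP cells (adjusted p = 0.258 in limma). Without OXP replicate 2 the difference was -0.86 (adjusted p = 7.92e-05), without OXP replicate 1 it was -0.35 (0.534), and without both it was -0.74 (0.000602). It differed by 0.12 between STS+OXP and CTR cells (adjusted p = 0.708), and the interaction was -0.000472 (adjusted p = 0.999). Akr1b8 has close relatives in the mouse genome, and Akr1b10 is measured among them below; the arrays do not show how far their probes share signal.

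Akr1a1 was bright on every array and varied little within groups. Its signals were 11.97, 11.93 and 11.98 in STS+OXP cells, 11.98, 11.97 and 11.97 in OXP cells, 11.81, 11.78 and 11.77 in STS cells and 11.78, 11.72 and 11.74 in CTR cells. The OXP-treated arrays lay above the untreated arrays without overlap. It rose by 0.21 in STS+OXP over CTR cells (adjusted p = 0.0129 in limma) and by 0.23 in OXP over CTR cells, which is 1.17-fold (SE 0.06, adjusted p = 0.00804).

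For Akr1a1 the OXP minus CTR call was lost in a fit of these groups alone (adjusted p = 0.0545), in the methods' t-test (0.0600) and without OXP replicates 1 and 2 (0.0650). In STS+OXP against STS cells the difference of 0.17 did not pass (adjusted p = 0.0504 in limma), and it passed in 8 of the alternatives, with adjusted p from 0.00250 (eBayes with trend and robust) to 0.0486 (without OXP replicate 1), the methods' t-test among them (0.0241). Its 3 probe sets gave OXP minus CTR differences of 0.23, 0.23 and 0.34. STS and CTR cells differed by 0.04 (adjusted p = 0.741), with a 95% interval from -0.09 to 0.17.

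Cbr2, the neighbour of Dcxr, was dim. Its signals were 3.77, 4.29 and 3.74 in STS+OXP cells, 3.72, 3.82 and 3.79 in OXP cells, 3.59, 3.59 and 3.66 in STS cells and 3.34, 3.43 and 3.41 in CTR cells. The CTR mean of 3.39 was at control level, and the arrays of the other groups lay above the CTR arrays without overlap. Cbr2 rose by 0.54 in STS+OXP over CTR cells (adjusted p = 0.00257 in limma) and by 0.38 in OXP over CTR cells (adjusted p = 0.0229). By the bacterial control level these rises were at least 1.33-fold and at least 1.19-fold. These folds compare group means with 3.52, the mean over the CTR arrays of the higher of that level and the Cbr2 signal on each. With the GC control probe sets the CTR level was 3.66, so both folds would be smaller. The folds are not confidence limits. STS+OXP replicate 2 was the highest array, and without it the STS+OXP minus CTR difference was 0.36 (adjusted p = 0.00228).

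The Cbr2 call for OXP against CTR was lost without CTR replicate 1 (adjusted p = 0.0770), CTR replicate 3 (0.0539), OXP replicate 2 (0.0572) or OXP replicate 3 (0.0549), and without both OXP replicates 1 and 2 (0.0967). The call for STS+OXP against CTR was lost in the methods' t-test (0.226). In STS against CTR cells, Cbr2 differed by 0.22 (adjusted p = 0.261 in limma, 95% interval from -0.03 to 0.47). With the GC control probe sets as the control level, the CTR level of 3.66 exceeded the STS mean of 3.61, so no fold is given. Cbr2 passed without STS+OXP replicate 2 (0.0403) and in a fit of the STS and CTR arrays alone (0.0377). In STS+OXP against STS cells it differed by 0.32 (adjusted p = 0.0703), and passed without STS+OXP replicate 1 (0.0456) or replicate 3 (0.0325), while without STS+OXP replicate 2 the difference was 0.14 (0.236).

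Cbr1 was near the control level in all groups. Its signals were 3.49, 3.36 and 3.50 in STS+OXP cells, 3.62, 3.43 and 3.37 in OXP cells, 3.04, 3.12 and 2.97 in STS cells and 3.38, 3.24 and 3.16 in CTR cells. The STS+OXP and OXP means of 3.45 and 3.47 were above the bacterial control level, but with the GC control probe sets as the level the STS+OXP mean was not. Cbr1 passed the test in STS+OXP against STS cells (difference 0.41, SE 0.09, adjusted p = 0.00332 in limma), with the STS arrays at control level, so no fold is given. In OXP against CTR cells the difference was 0.21 (adjusted p = 0.0857), and it passed without CTR replicate 1 (0.0439), with median centring (0.0480) and with cyclic loess (0.0375). In STS+OXP against CTR cells it passed with array quality weights (0.0124).

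Cbr3 was at control level in all 4 groups, with means of 2.88 in STS+OXP cells, 2.88 in OXP cells, 2.91 in STS cells and 2.97 in CTR cells, so no fold is given. It passed in none of the 6 comparisons in limma (lowest adjusted p = 0.501, lowest unadjusted p = 0.308), and the lowest of its arrays was 2.76 and the highest 3.11.

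Across the comparisons that used the rule's own contrast, Dcxr is left out of the count. In OXP against CTR cells, 3 of 5 members passed (Cbr2, Akr1a1 and Akr1b8, all higher), beside 31.4% of all genes. In STS+OXP against CTR cells 2 of 5 passed (Cbr2 and Akr1a1), beside 30.6%, and in STS+OXP against STS cells 2 of 5 passed (Cbr1 and Akr1b8), beside 22%. For the interaction, 0 of 5 passed in limma, beside 8.29%, and 0 of 5 had an unadjusted p under 0.05.

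Measured genes near Dcxr were read to see whether they shared its level. Cenpx, a centromere protein gene, fell by 1.43 in STS+OXP over CTR cells (adjusted p = 2.76e-06 in limma), by 0.98 in OXP over CTR cells (adjusted p = 9.31e-05) and by 0.71 in STS over CTR cells (adjusted p = 0.00337). Gps1, a signalosome subunit gene, differed by -0.29 in STS+OXP over CTR cells (adjusted p = 0.00609) and by -0.31 in OXP over CTR cells (adjusted p = 0.00446). Lrrc45 and Rfng did not pass in any of the comparisons with CTR, although Lrrc45, lower by 0.25 in STS cells, passed there in 5 alternatives, among them without OXP replicate 1 (0.0478). In the methods' t-test the Cenpx calls for OXP and STS over CTR (adjusted p = 0.166 and 0.0554) and both Gps1 calls (0.0585 in STS+OXP and 0.0580 in OXP over CTR cells) were lost.

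**Figure D3:**
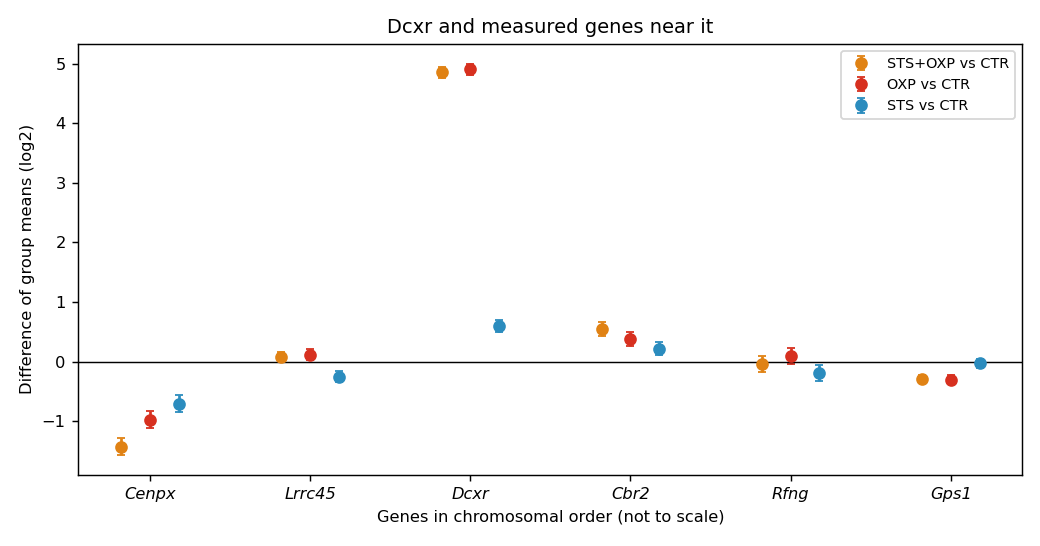
Difference of group means (log2) with the standard error of the fit for Dcxr and 5 measured genes near it, in the order of the chromosome. Dcxr stands near 5 in the STS+OXP and OXP comparisons with CTR (4.85 and 4.91), while the other 5 genes lie between -1.43 and 0.54.

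The genes whose profile over the 12 arrays was most like that of Dcxr, by the root mean square difference after subtracting each gene's mean, were Trp53inp1 (0.527), Ces2e (0.576), Cd80 (0.644), Anxa8 (0.732) and Eda2r (0.745). Trp53inp1 is a stress-induced gene of the p53 pathway, Eda2r a receptor of the tumour necrosis factor family, Ces2e a carboxylesterase, Cd80 a ligand for T-cell costimulation and Anxa8 an annexin. OXP minus CTR differences were 4.18 for Trp53inp1, 3.85 for Ces2e, 3.65 for Cd80, 3.89 for Anxa8 and 3.20 for Eda2r. In STS over CTR cells Trp53inp1 differed by 1.12, while the other 4 lay between -0.15 and 0.04. Ces2e, Cd80 and Anxa8 were at control level in STS and CTR cells, so their differences are understated. For Akr1b8, the nearest were Ethe1 (0.118), Mettl21a (0.135) and Pigf (0.142).

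**Figure D4:**
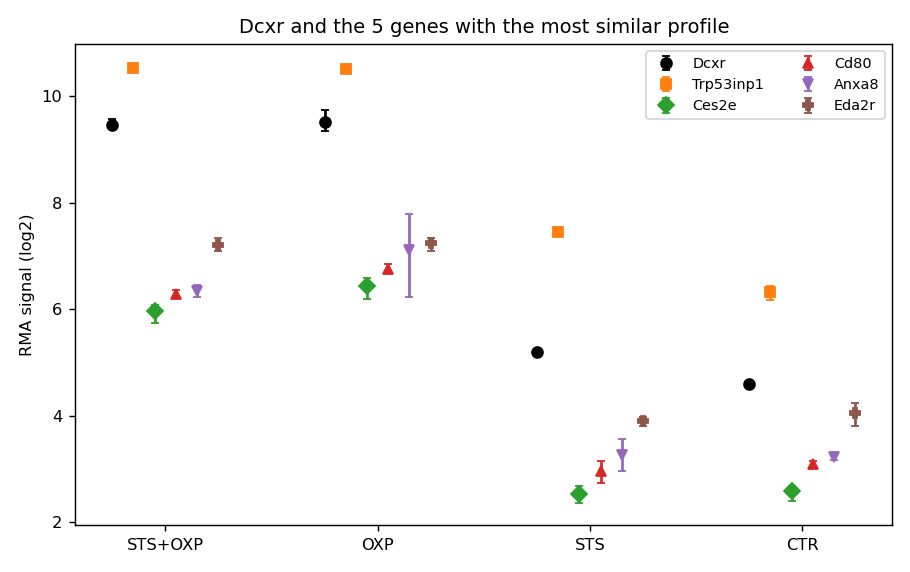
RMA signal (log2) of Dcxr and the 5 genes with the smallest root mean square difference from it, as group means with the lowest and highest array (bars). All 6 genes are higher in the STS+OXP and OXP groups than in the STS and CTR groups, which follows from choosing the 5 by profile. Trp53inp1 (7.44 in STS, 6.32 in CTR) has, like Dcxr, a higher mean in STS than in CTR cells.

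Genes of related pathways were then counted, 103 of 113 listed genes being measured, with the percentages of all genes called being 17.5% higher and 13.9% lower for OXP against CTR, and 9.75% higher and 6.74% lower for STS against CTR. Of 37 other short-chain dehydrogenases/reductases, 11 were higher and 4 lower in OXP over CTR cells (median difference 0.07, against -0.01 for all genes), and 7 higher and 3 lower in STS over CTR cells (median 0.03, against -0.03). The 3 lower became 0 without CTR replicate 1, STS replicate 1 or STS replicate 3, 1 without CTR replicate 3 or STS replicate 2, 5 without OXP replicate 1 and 6 with array quality weights. Hsd17b11, a hydroxysteroid dehydrogenase, rose by 1.92 in OXP (adjusted p = 8.19e-10 in limma) and by 1.40 in STS cells (adjusted p = 6.58e-08). Rdh10 and Dhrs3, enzymes of retinoid metabolism, rose by 1.50 and 1.12 in OXP over CTR cells. These calls were lost in the methods' t-test (adjusted p = 0.0645 and 0.0536). Both genes also rose in STS over CTR cells, by 1.11 and 0.78 (adjusted p = 3.86e-05 and 9.12e-05 in limma). Nsdhl and Hsd17b7, enzymes of cholesterol synthesis, rose by 1.42 and 1.19 in STS over CTR cells (adjusted p = 0.000182 and 0.00205 in limma). In OXP over CTR cells they rose by 0.61 and 0.82 (adjusted p = 0.0256 and 0.0108 in limma), with SDs of 0.57 and 0.65 over the OXP arrays.

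Of 15 other aldo-keto reductases, 4 were higher and 0 lower in OXP over CTR cells (median 0.03), and 2 were higher and 0 lower in STS over CTR cells (median -0.00380). The count of lower genes was 1 without OXP replicate 1 or 3 in OXP over CTR cells, and 1 without OXP replicate 2 in STS over CTR cells, while the 4 higher became 2 without OXP replicates 1 and 2. Akr1b10, a relative of Akr1b8, had means of 8.25 in STS+OXP cells, 8.39 in OXP cells, 6.68 in STS cells and 6.01 in CTR cells. It rose by 2.38 in OXP over CTR cells (5.20-fold, adjusted p = 1.63e-09 in limma) and by 0.67 in STS over CTR cells (adjusted p = 0.000591). Akr1c14, a hydroxysteroid dehydrogenase of the aldo-keto reductase family, rose by 2.01 in STS over CTR cells (adjusted p = 3.31e-05). Akr1e1 and Kcnab1 rose by 0.51 and 0.42 in OXP over CTR cells, and these calls were lost in the methods' t-test (adjusted p = 0.342 and 0.233) and without OXP replicates 1 and 2 (0.0907 and 0.0726). Without OXP replicate 1, Akr1e1 rose by 0.30.

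Of 8 genes of the glucuronate-xylulose and polyol pathway, in which Dcxr acts, 1 was higher and 1 lower in OXP over CTR cells (median -0.04), and 0 passed in STS over CTR cells (median -0.11). Ugp2, which makes the UDP-glucose from which glucuronate is formed, rose by 0.24 in OXP over CTR cells (adjusted p = 0.0375 in limma). This call was lost when any 1 of 8 arrays was left out, among them OXP replicate 1 (adjusted p = 0.150). Without both OXP replicates 1 and 2 the Ugp2 difference was 0.11. The 1 lower gene was lost without CTR replicate 2 or 3 or OXP replicate 2 or 3. Of 11 genes for the supply of NADPH, the cofactor of these enzymes, 5 were higher and 3 lower in OXP over CTR cells (median -0.06), and 3 higher and 1 lower in STS over CTR cells (median 0.02). The 5 higher became 3 without CTR replicate 1, 2 with specific probe sets only and 0 in the methods' t-test. The 3 higher in STS cells became 1 with specific probe sets only and 0 in the methods' t-test. Specific probe sets covered 9 of the 11 genes.

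Idh1, a cytosolic NADPH-forming isocitrate dehydrogenase, rose by 1.06 in OXP over CTR cells (adjusted p = 3.79e-05 in limma) and by 1.28 in STS over CTR cells (adjusted p = 2.73e-05). Its mitochondrial counterpart Idh2 fell by 1.12 in OXP over CTR cells (adjusted p = 6.58e-08), but by 0.09 with specific probe sets only (adjusted p = 0.619). Aldh1l2, a mitochondrial folate enzyme that forms NADPH, fell by 2.08 in OXP over CTR cells (adjusted p = 1.76e-08) and by 1.20 in STS over CTR cells (adjusted p = 1.47e-05). Nadk2, a mitochondrial NAD kinase, rose by 1.02 in STS over CTR cells (adjusted p = 2.33e-05). In the methods' t-test the calls were lost for Idh1 (adjusted p = 0.116 in OXP and 0.0509 in STS over CTR cells), for Aldh1l2 in OXP over CTR cells (0.0736) and for Nadk2 (0.0540).

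Of 17 aldehyde dehydrogenase genes, many of whose enzymes oxidise aldehydes, 6 were higher and 2 lower in OXP over CTR cells (median -0.01). In STS over CTR cells 4 were higher and 1 lower (median 0.00382). The 2 lower with OXP became 1 without CTR replicate 1, and the 1 lower in STS cells became 2 without CTR replicate 3. Aldh1a1, which makes retinoic acid, had means of 7.61 in STS+OXP cells, 7.67 in OXP cells, 6.74 in STS cells and 3.88 in CTR cells. It rose by 3.80 in OXP over CTR cells (13.9-fold, adjusted p = 1.86e-10 in limma) and by 2.86 in STS over CTR cells (adjusted p = 9.90e-09). Aldh3a1 rose by 2.89 in OXP over CTR cells (adjusted p = 5.95e-09) and by 0.68 in STS over CTR cells (adjusted p = 0.00630), and Aldh18a1, which acts in proline synthesis, fell by 1.67 in OXP over CTR cells (adjusted p = 1.62e-08). The methods' t-test lost the Aldh3a1 call in STS cells (0.123) and the Aldh18a1 call (0.0519).

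Of 15 targets of NRF2, the transcription factor of the antioxidant response, 4 were higher and 6 lower in OXP over CTR cells (median -0.36), and 2 higher and 7 lower in STS over CTR cells (median -0.46). Ephx1, an epoxide hydrolase, rose by 2.99 in OXP over CTR cells (adjusted p = 1.55e-11 in limma), and Gsta4 and Gstm1, glutathione transferases, rose by 2.11 and 1.34 (adjusted p = 1.58e-08 and 1.20e-06), the Gstm1 call being lost in the methods' t-test (0.0934). In STS over CTR cells Hmox1, haem oxygenase, fell by 2.01 (adjusted p = 3.12e-05) and Gsta4 rose by 0.97 (adjusted p = 8.62e-05). Nqo1, a quinone reductase, fell by 0.89 in STS over CTR cells (adjusted p = 0.0263), a call that was lost without any of the 6 CTR and STS arrays (0.0511 to 0.0818), with trended and robust eBayes (0.0511) and in the methods' t-test (0.0769).

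**Figure D5:**
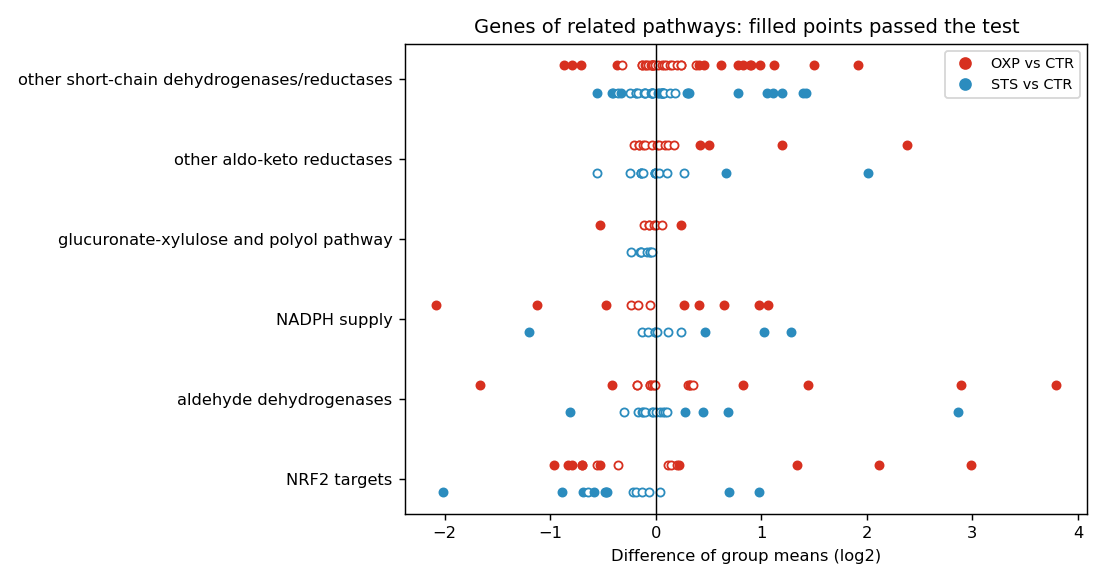
Difference of group means (log2) of each measured gene of 6 related lists, for OXP vs CTR and STS vs CTR. Filled points passed limma at an adjusted p of 0.05; the rightmost point is Aldh1a1 in OXP vs CTR (3.80) and the glucuronate-xylulose and polyol genes lie closest together.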

How the data were processed

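RNA of CT26 cells was measured on 12 Affymetrix mouse arrays, and the values deposited by the authors are log2 signals computed with RMA in R 3.02, per the labels, which corrects background, equalises distributions between arrays and summarises probes. Depth is not defined for arrays, and their number limits the precision. Of 45141 probe sets, 28898 have 1 gene symbol, 551 several and 15588 none, and 104 are controls; each of 17097 genes was read from its single-symbol probe set with the highest mean. Positions and promoter windows are from RefSeq (GRCm38.p6).

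A 4-group model of the 12 arrays was fitted in R 4.3.3 using limma 3.58.1 (8 residual and 5.05 prior degrees of freedom), two-sided, with Benjamini-Hochberg adjustment over all genes at 0.05. The interaction is (STS+OXP minus OXP) minus (STS minus CTR). The script was tested on simulated data. Members and lists were chosen with earlier results of these data known, and the 15 bacterial control probe sets after control values were seen. Named are all members, up to 3 genes per list with the largest change among those called whose arrays did not overlap, the 3 nearest measured genes on each side of Dcxr (1 of them is not reported here), and the most similar profiles. Alternatives were scaling, probe set choice, a filter on dim genes, eBayes options, array weights, the samples in the fit, a replicate block, the methods' t-test and leaving out arrays. The study names this unpaired Welch t-test for in vitro experiments, and names no test for the arrays. Benjamini-Hochberg adjustment over all genes was added to it here. Leaving out both OXP replicates 1 and 2 was chosen after seeing the data.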

Additional observations from a re-analysis of the deposited data

Results flagged for a closer look

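The starvation effect with OXP present minus that without it (the interaction) passed limma at an adjusted p of 0.05 for 13 of the 22 related genes named above, beside 8.29% of all genes. These genes were named for large changes in OXP or STS over CTR cells, and the interaction uses the same arrays, so both the count and the signs are tied to how the genes were chosen and are given as a description. Over all 103 measured genes of the lists, 6 passed with a positive and 13 with a negative interaction. Among the named genes, it was negative for Aldh1a1 (-2.92), Akr1c14 (-1.76), Hsd17b11 (-1.38), Rdh10 (-1.29), Nadk2 (-1.26), Aldh3a1 (-1.23), Gsta4 (-0.93), Dhrs3 (-0.85), Akr1b10 (-0.81) and Idh1 (-0.80). It was positive for Aldh1l2 (1.44), Hmox1 (1.31) and Aldh18a1 (1.02). Aldh1a1, for example, had means of 7.61 in STS+OXP cells and 7.67 in OXP cells, against 6.74 in STS cells and 3.88 in CTR cells. The call was lost for Idh1 without any of 6 arrays (CTR replicates 1 and 3, STS replicates 1 and 2, STS+OXP replicates 1 and 3; adjusted p from 0.0506 to 0.0666), and for Hmox1 without CTR replicate 1 (0.0530), STS replicate 1 (0.0575) or STS+OXP replicate 2 (0.0554).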

How the results depend on the processing

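The number of members tested was smaller in some alternatives. Specific probe sets left 4 members besides Dcxr, without Akr1a1. Genes above the median signal left 2 besides Dcxr, Akr1a1 and Akr1b8. Counts there are out of fewer members. The count of members called moved with the processing, and apart from these alternatives the cause was not tested. In STS against CTR cells it was 1, and it was 2 with cyclic loess, with genes above the median signal only, with array quality weights, with the methods' t-test and without OXP replicates 1 and 2, 3 in a fit of the STS and CTR arrays alone, and 1 to 2 when each array was left out in turn. In OXP against CTR cells it was 3, and 4 with median centring and with cyclic loess, 2 with specific probe sets and with genes above the median signal, 2 to 3 when each array was left out, and 1 in a fit of the OXP and CTR arrays alone, with the methods' t-test and without OXP replicates 1 and 2. In STS+OXP against CTR cells it was 2, and 3 with array quality weights, and 1 with specific probe sets, with genes above the median signal and with the methods' t-test. In STS+OXP against OXP cells it was 0, and 1 without OXP replicates 1 and 2, with 0 to 1 when each array was left out, and in STS+OXP against STS cells it was 2, with 1 to 3. The Dcxr difference between OXP and CTR cells was 5.14 without OXP replicates 1 and 2, against 4.91.

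Small differences changed sign. For STS+OXP against OXP cells, Dcxr ranged from -0.14 to 0.061 over the arrays left out, Cbr1 from -0.073 to 0.051 (0.033 with array weights, 0.079 without OXP replicates 1 and 2), Cbr2 from -0.020 to 0.25, and Akr1a1 was 0.040 with cyclic loess. For STS against CTR cells Akr1a1 was -0.014 with the average of all probe sets, and Gps1 ranged from -0.062 to 0.0074. The interaction ranged from -0.24 to 0.037 for Cbr2 and from -0.30 to 0.21 for Akr1b8 (0.077 with cyclic loess). Rfng ranged from -0.036 to 0.17 in OXP against CTR cells (-0.082 with the average of all probe sets, -0.00469 without OXP replicates 1 and 2) and from -0.20 to 0.040 in STS+OXP against CTR cells.

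All genes called numbered 715 by the methods' t-test and 2819 by limma in STS against CTR cells, 1034 and 5377 in OXP against CTR cells, 3165 and 5230 in STS+OXP against CTR cells, 2169 and 3764 in STS+OXP against STS cells, and 0 and 2 in STS+OXP against OXP cells. By the methods' t-test, 2 short-chain dehydrogenases/reductases, 1 aldo-keto reductase, 2 aldehyde dehydrogenases and 2 NRF2 targets were higher in OXP over CTR cells, against 11, 4, 6 and 4 by limma. The replicate block changed no member call, and among the named genes only Ugp2 in OXP against CTR cells (adjusted p = 0.0544). Replicate numbers did not pair the arrays: 1 of 18 same-number pairs had a correlation over 0.1, and 2 of 12 arrays correlated best with their own number. Cbr1, Cbr2 and Cbr3, close to control level, limit what these arrays can show of their changes.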
